A study of Mus musculus with 8 samples.

Results

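The Prame-like genes described here are the 8 genes Pramel3, Pramel4, Pramel5, Pramel6, Pramel7, Pramef8, Pramef12 and Pramef25, taken by their symbols from the 50902 genes of the expression table. They were chosen with their difference between the conditions below already known, so their fold changes are given as a description, with no test. RNA was sequenced from E14 mouse embryonic stem cells (ESCs), a line derived from the mouse inner cell mass, grown in N2B27 medium with LIF and 2i (inhibitors of MEK and GSK3β that hold the cells in the ground state). One line carried a Flag- and HA-tagged Baz2a transgene of full length (ESC + F/H-BAZ2ArWT, 4 libraries, called WT below) and the other the same transgene without the RNA-binding TAM domain (ESC + F/H-BAZ2ArΔTAM, 4 libraries, called ΔTAM). Both transgenes were inserted with PiggyBac transposase and resist the siRNA against Baz2a with which cells of both lines were transfected 3 days before collection. BAZ2A is a chromatin factor of ESCs that forms nuclear bodies, and the comparison asks which transcripts depend on its TAM domain. Each line was expanded from single cells according to the methods, so the domain and the clone cannot be told apart, and the p-values measure only the spread between libraries, which the labels do not place in separate cultures.

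Members of the Prame family encode leucine-rich repeat proteins and lie in tandem arrays that expanded in rodents. Most are transcribed in the germ line, the oocyte or the early embryo and are silent in somatic cells. PRAMEL7 and its neighbour PRAMEL6 are present in the inner cell mass, and PRAMEL7 acts as a substrate adaptor of the CUL2 ubiquitin ligase, through which it lowers UHRF1, the partner of the maintenance DNA methyltransferase, and CHD4, the remodeller of the NuRD complex. PRAMEF12 is known for its part in the development of spermatogonia.

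The libraries held between 6560881 and 8662855 reads on genes, and no library stood apart in depth. Baz2a itself, which both the chromosomal gene and the transgene feed, was at 10.5 ± 0.529 RPKM in WT and 18.3 ± 0.824 RPKM in ΔTAM (SD, n = 4 each). Its log2 fold change was 0.80 (limma adjusted p = 6.32e-05). The study reports similar amounts of the BAZ2A protein in both lines by western blot. This difference in RNA cannot be told apart from the domain or the clone. The cells had the ESC markers Pou5f1, Nanog, Sox2, Zfp42 and Esrrb in every library, with a summed level of 69.6 to 72.0 RPKM in WT and 60.1 to 65.3 RPKM in ΔTAM. Of these, Sox2 (27.3 ± 0.343 against 20.4 ± 0.735 RPKM, log2 fold change -0.42, limma adjusted p = 0.000121) and Esrrb (-0.22, adjusted p = 0.0027) were called lower in ΔTAM, with no overlap between the groups, which is 2 of the 5 beside 11.9% of all genes tested. Nanog (0.0228, adjusted p = 0.669), Pou5f1 (-0.0576, adjusted p = 0.345) and Zfp42 (0.0046, adjusted p = 0.925) did not pass the threshold, and their groups overlapped. The deposited unit, RPKM, gives reads scaled to the library's total and to kilobases, in which the kilobases are the gene's whole genomic span with introns. The levels of the members are therefore compared with one another only after division of the recovered reads by the length of the exons. Where genes of a list are picked for their RPKM, as the naming rule asks, that is no order of transcript levels. The summed levels of marker lists carry the same limit, since genes with little intron weigh more in them.

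Of the 8 genes, 5 averaged 0.01 RPKM or more over all 8 libraries and entered the fit, and the other 3 (Pramel3, Pramel4 and Pramel5) did not. Pramel6, Pramel7 and Pramef25 were higher in ΔTAM, Pramef8 was lower, and Pramef12, which gave most of the reads, lay within the same range in both. By the threshold used for other genes (limma, adjusted p under 0.05), 13.2% of the 16143 genes tested were called higher, 11.9% lower and 25.1% in either direction. Pramel6, Pramel7 and Pramef25 had all ΔTAM libraries above all WT libraries, and Pramef8 had all below. Of the genes tested, 29.6% did not overlap between the groups, 15.2% upwards and 14.4% downwards. A log2 fold change at least that of Pramel7 was found for 1.63% of the genes tested, and one at or below that of Pramef8 for 4.63%. Since the members were picked on this contrast, nothing is read from these values.

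**Figure D1:**
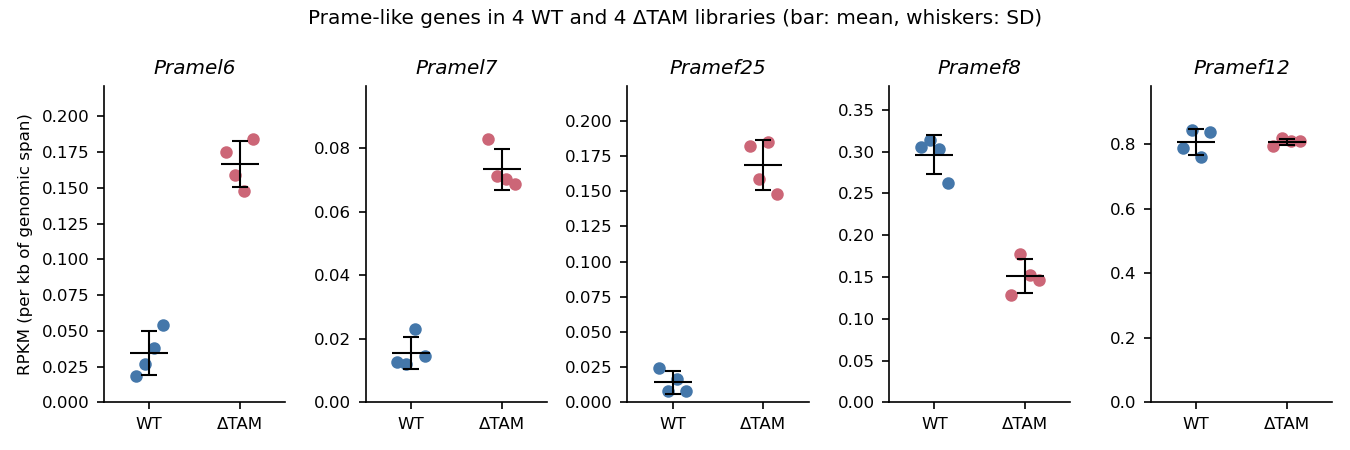
RPKM of the 5 Prame-like genes that entered the fit, each on its own linear axis from 0, in 4 WT and 4 ΔTAM libraries (points), with the mean and SD (bar and whiskers). Pramel6, Pramel7 and Pramef25 lie higher in all ΔTAM libraries than in all WT libraries, Pramef8 lies lower, and the points of Pramef12 overlap.

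Pramel6 lies on the forward strand at chr2:87506565-87510872 (GRCm38/mm10) with 2084 bases of exon in GENCODE vM21. Its level was 0.0187, 0.0271, 0.0381 and 0.054 RPKM in WT replicates 1 to 4 and 0.175, 0.159, 0.148 and 0.184 RPKM in ΔTAM replicates 1 to 4. The groups did not overlap, and the lowest ΔTAM library was above the highest WT library. These values stood for 4, 6, 8 and 12 reads in WT and 34, 30, 34 and 46 in ΔTAM, so that counting error is a large part of the spread in WT. The log2 fold change on the scale log2(RPKM + 0.01) was 2.05 (SE 0.234), and the ratio of the summed reads, scaled to the reads on genes, was 4.81 (95% exact interval 3.23 to 7.39, for counting error only).

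Pramel7 lies on the reverse strand at chr2:87489087-87497093, next to Pramel6 and pointing away from it, with 9471 bases between the annotated spans. Its 2134 bases of exon received 5, 5, 9 and 6 reads in WT and 30, 25, 30 and 32 in ΔTAM. The levels were 0.0126, 0.0121, 0.0231 and 0.0145 RPKM in WT against 0.0829, 0.0713, 0.0703 and 0.0688 RPKM in ΔTAM, again with no overlap between the groups. The log2 fold change was 1.72 (SE 0.146) and the ratio of summed reads 4.69 (95% exact interval 3.03 to 7.55). The pseudocount of 0.01 RPKM lies close to the WT level of Pramel7 and compresses its fold change: voom on the recovered reads gave 2.19 (SE 0.295), against 2.29 (SE 0.298) for Pramel6.

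The neighbours thus had read ratios of almost the same size. Per base of exon, the level of Pramel6 was 0.819, 1.23, 0.91 and 2.05 times that of Pramel7 in WT replicates 1 to 4, and 1.16, 1.23, 1.16 and 1.47 times in ΔTAM. The ratios of the ΔTAM libraries lay within the range of the WT libraries, where the reads were fewer and the ratio spread more.

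Pramef25 (Pramel16 in RefSeq) lies on the reverse strand at chr4:143948580-143951016, in the large family array on distal chromosome 4. It received 3, 1, 2 and 1 reads in WT and 20, 17, 24 and 21 reads in ΔTAM, or 0.0248, 0.00797, 0.0169 and 0.00795 RPKM against 0.182, 0.159, 0.185 and 0.148 RPKM. Every ΔTAM library was above every WT library. The log2 fold change was 2.92 (SE 0.225), the largest among the members that entered the fit, and the ratio of summed reads was 11.7 (95% exact interval 5.45 to 30.1). Of the 100-base stretches of its transcripts, the read length in the labels, 73.5% occur in no other gene. The other 420 occur also in other genes, 210 of them in the transcripts of Gm13040, which had 0 reads over all libraries. Some of the reads of Pramef25 could therefore have come from Gm13040 or other copies.

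The upstream sequences of Pramel6, Pramel7 and Pramef25 are shown because these genes moved together, and that of Pramef12 because it did not move. RefSeq (GRCm38.p6) gave windows for 7 of the 8 members, and the 250 bases before the annotated start are printed 5′ to 3′ on the gene's strand, with CpG dinucleotides in capitals. They are Pramel6 at chr2:87506315-87506564 (forward), Pramel7 at chr2:87492419-87492668 (reverse), Pramef25 at chr4:143951017-143951266 (reverse) and Pramef12 at chr4:144408465-144408714 (reverse).
Pramel6: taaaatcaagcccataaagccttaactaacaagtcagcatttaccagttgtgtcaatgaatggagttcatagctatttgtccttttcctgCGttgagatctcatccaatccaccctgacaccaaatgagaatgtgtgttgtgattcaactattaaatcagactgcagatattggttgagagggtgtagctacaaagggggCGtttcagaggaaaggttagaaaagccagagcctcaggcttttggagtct
Pramel7: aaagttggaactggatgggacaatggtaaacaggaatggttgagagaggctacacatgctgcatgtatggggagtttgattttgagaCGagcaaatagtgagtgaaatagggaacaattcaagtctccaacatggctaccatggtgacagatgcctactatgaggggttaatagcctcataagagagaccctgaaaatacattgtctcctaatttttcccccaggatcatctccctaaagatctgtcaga
Pramef25: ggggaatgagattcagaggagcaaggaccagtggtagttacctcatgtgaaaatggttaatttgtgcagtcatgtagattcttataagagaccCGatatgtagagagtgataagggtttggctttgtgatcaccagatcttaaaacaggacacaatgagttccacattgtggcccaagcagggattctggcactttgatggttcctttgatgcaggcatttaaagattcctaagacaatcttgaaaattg
Pramef12: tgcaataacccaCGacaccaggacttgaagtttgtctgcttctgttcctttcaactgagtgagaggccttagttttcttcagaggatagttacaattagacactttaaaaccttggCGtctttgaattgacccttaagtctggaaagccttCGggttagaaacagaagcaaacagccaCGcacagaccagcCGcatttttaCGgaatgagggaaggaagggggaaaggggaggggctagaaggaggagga

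The windows of the 3 genes that were higher in ΔTAM held few CpGs, with 2 for Pramel6, 1 for Pramel7 and 1 for Pramef25, against 6 for Pramef12 and a median of 6 over the 32817 windows in the table. Few CpGs were not particular to them: Pramel4 had 1 and Pramel5 had 0, and the median over the 43 family windows was 1. Their GC contents of 42.0%, 43.2% and 41.6% were below the median of 52.4%, and the window of Pramef12 had 47.2%. None of the 7 member windows held any of 5 motifs searched on both strands, which says only that these letters are not in these 250 bases. The motifs, with the share of all windows that hold each, were the octamer ATGCAAAT (1.60%), the STAT motif TTCNNNGAA (7.01%), the GC box GGGCGG (32.7%), the TATA box TATAAA (12.4%) and the E-box CACGTG (6.02%). The start used for Pramel7 is that of its coding transcript, and 3 noncoding transcripts in GENCODE start farther upstream, between positions 87496890 and 87497093, so that this window lies inside the gene's span. The start used for Pramel6 is that of noncoding transcripts, and its coding transcripts start farther downstream, at positions 87507425 and 87508458.

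The Pramel7 window was also compared with those of the rest of the family. It matched the windows of Pramef17 at 81.6% and of Gm13128 at 80.4% of its 250 bases in a global alignment, although both these genes lie on chromosome 4. The median over the 903 pairs of family windows was 52.4%. The members that were higher in ΔTAM were less alike: Pramel7 matched Pramel6 at 33.2% and Pramef25 at 53.6%, and Pramel6 matched Pramef25 at 33.2%. The last 80 bases before the starts of Pramel7, Pramef17 and Gm13128 are shown. The 2 longest runs that these 3 windows share, of 23 bases each, are in capitals. Among the 32817 windows, searched on both strands, each of these runs occurs only in these 3.
Pramel7, chr2:87492419-87492498 (reverse): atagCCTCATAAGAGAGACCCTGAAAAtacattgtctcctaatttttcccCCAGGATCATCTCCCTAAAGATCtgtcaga
Pramef17, chr4:143994370-143994449 (reverse): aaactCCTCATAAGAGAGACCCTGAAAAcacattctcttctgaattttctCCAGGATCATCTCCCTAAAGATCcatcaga
Gm13128, chr4:144330169-144330248 (forward): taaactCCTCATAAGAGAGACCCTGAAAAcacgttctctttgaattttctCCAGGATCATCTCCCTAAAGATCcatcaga

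Pramef8 (Pramel12 in RefSeq), on the forward strand at chr4:143412426-143421091 in the same chromosome 4 array as Pramef25, went the other way. It was at 0.306, 0.314, 0.303 and 0.262 RPKM in WT and 0.128, 0.177, 0.152 and 0.147 RPKM in ΔTAM. The groups did not overlap, and the reads behind them, 117 to 140 per WT library and 50 to 74 per ΔTAM library, make the value firmer than those of Pramel6, Pramel7 and Pramef25. The log2 fold change was -0.94 (SE 0.0995), close to -0.98 (SE 0.12) from voom, and the ratio of summed reads was 0.506 (95% exact interval 0.435 to 0.589).

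Pramef12 (Pramel13 in RefSeq) lies on the reverse strand at chr4:144391674-144408464, near the other end of that array. It was at 0.788, 0.845, 0.759 and 0.837 RPKM in WT and 0.796, 0.818, 0.809 and 0.809 RPKM in ΔTAM, with 602 to 789 reads in each library. The ΔTAM libraries all lay inside the range of the WT libraries. The log2 fold change was 0.0024 (SE 0.0386), and the ratio of summed reads, 0.997 with a 95% exact interval of 0.945 to 1.05, left room for a counting difference of a few percent.

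The remaining members gave almost no reads. Pramel3, on chromosome X, had 1 read in WT replicate 1 and none elsewhere. Pramel5, on chromosome 4, had 1 read in WT replicate 4 and 1 in ΔTAM replicate 3. Pramel4, on chromosome 4, had none in any library, which allows up to 3 reads or 0.00604 RPKM in the shallowest WT library and 0.00671 RPKM in the shallowest ΔTAM library. For Pramel4 and Pramel3 the depth is not the only limit, since 22.6% and 37.9% of their 100-base stretches occur in no other gene and how reads with several matches were counted is not given in the sources used here. Any difference in these 3 genes was not detectable at this depth.

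Scaled to the kilobases of exon and to 1000000 reads on genes, Pramef12 stood at 35.4 ± 1.81 in WT and 35.3 ± 0.257 in ΔTAM (SD, n = 4 each), far above all other members. In WT, Pramef8 followed at 4.13 ± 0.316, then Pramel6 at 0.479 ± 0.214, Pramel7 at 0.393 ± 0.129 and Pramef25 at 0.14 ± 0.0786. In ΔTAM the order after Pramef12 was Pramel6 at 2.31 ± 0.228, Pramef8 at 2.09 ± 0.271, Pramel7 at 1.84 ± 0.171 and Pramef25 at 1.63 ± 0.173. The neighbours in that order differed by less than the sum of their SDs from Pramel6 down to Pramef25 in ΔTAM, and so did Pramel6 and Pramel7 in WT. Pramef8 thus stood above Pramel6 and Pramel7 in WT by far more than their SDs and between them in ΔTAM.

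The table held 46 further entries of the Prame family, found through RefSeq genes whose symbols start with Prame or Oog. They include the antisense transcript Pramef12os, which has no such RefSeq gene and was taken by its own symbol. Of the 46, 27 had no read in any library. Of the 9 that entered the fit, Gm13083 and Gm13101 passed the filter only through their level in ΔTAM, and of the other 7, 5 were called higher in ΔTAM and 1 lower, beside a background of 13.2% and 11.9%. Without a filter, the 19 entries with a read had a median log2 fold change of 0.85. These genes share neighbours and sequence, so they are not independent of the members or of one another.

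Gm12800 and Gm12794, a pair of copies on chromosome 4 at chr4:101909121-101911908 and chr4:101940407-101943183, away from the distal array, had the largest changes among the called entries. Gm12800 went from 0.0125 ± 0.00372 to 0.139 ± 0.0156 RPKM (log2 fold change 2.73, SE 0.148, limma adjusted p = 5.11e-05) and Gm12794 from 0.0464 ± 0.00636 to 0.293 ± 0.0639 RPKM (2.41, SE 0.157, adjusted p = 0.000102). They share 501 of their 100-base stretches, so the split of reads between them is uncertain. In both genes the groups did not overlap.

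Gm13128 and Pramef17, whose windows match that of Pramel7, were picked from the further entries for their RPKM. Gm13128 rose from 0.354 ± 0.044 to 0.642 ± 0.0331 RPKM (log2 fold change 0.85, SE 0.0865, limma adjusted p = 0.000552) and Pramef17 from 0.174 ± 0.0606 to 0.343 ± 0.0445 RPKM (0.99, SE 0.237, adjusted p = 0.021). The call of Pramef17 was lost without any of 4 libraries taken singly (WT replicate 3 or ΔTAM replicate 1, 3 or 4), with adjusted p from 0.0515 to 0.0569. The pair shares 932 stretches of 100 bases, and 43.4% and 43.7% of the stretches of Gm13128 and Pramef17 occur in no other gene.

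A further 2 entries among the 7, Gm13119 and Pramel1, passed the threshold outside the naming rule and are named because their count is small. Gm13119 had a log2 fold change of 1.79. Pramel1 fell, from 154 to 95 reads (log2 fold change -0.60, limma adjusted p = 0.0152), so Pramef8 was not alone in that direction. The entries that entered the fit through ΔTAM are given by their reads, as a description. Gm13101 had 1 read in WT and 13 in ΔTAM, a ratio of 13.0 with a 95% exact interval of 1.96 to 554, and its groups overlapped. Gm13083 had no read in WT and 18 in ΔTAM, which makes it at least 6.02-fold higher against a floor of 3 reads over the WT group, while the 95% exact interval of the read ratio, which counts the error of both groups, begins at 4.41. Pramef12os, a transcript antisense to Pramef12, was not called, with 9 reads in WT and 5 in ΔTAM.

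Among the 10 entries with reads that lay under the filter, 4 had groups that did not overlap, all higher in ΔTAM, beside 2.95% upwards for all 9296 genes with a read under the filter. B020004J07Rik went from 3 to 33 reads, Gm13078 from 4 to 34, Pramef6 from 1 to 16 and BC080695 (Pramel20 in RefSeq) from 9 to 51. No test was made on them in the fit.

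**Figure D2:**
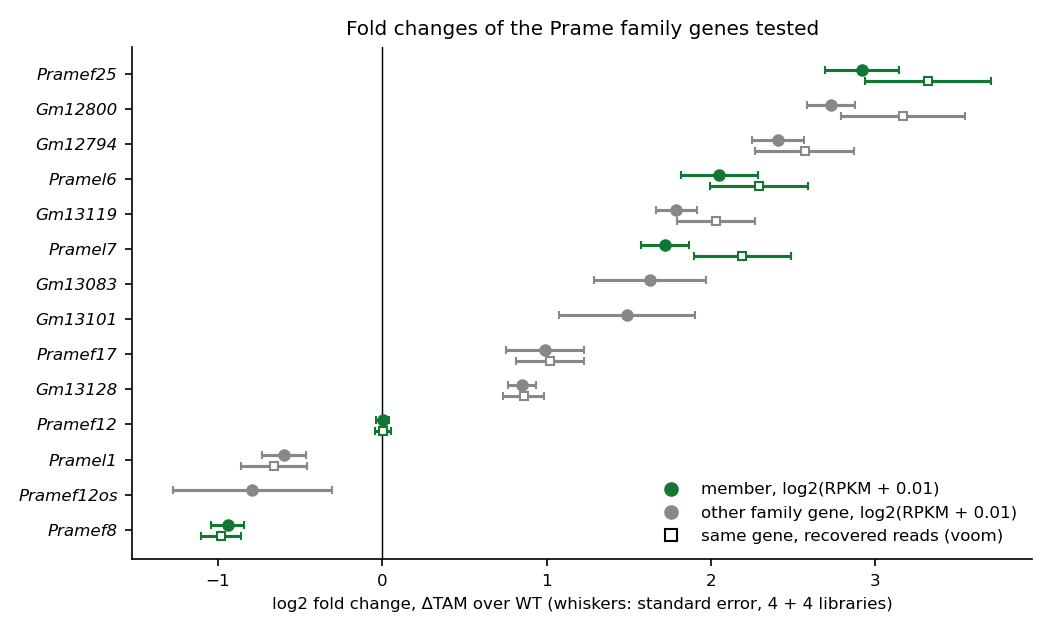
Log2 fold change of ΔTAM over WT with its standard error for the 5 members (green) and 9 further family entries (grey) that entered the fit, from limma on log2(RPKM + 0.01) (circles) and, where at least 5 reads per library on average allowed it, from voom on the recovered reads (squares). Values run from -0.94 for Pramef8 to 2.92 for Pramef25, with Pramef12 at 0; Gm13083 and Gm13101 entered the fit only through ΔTAM, and the value of Gm13083, which had no read in WT, depends on the pseudocount.

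Together the 54 family entries took 123 to 137 of every 1000000 reads on genes in the WT libraries and 154 to 160 in the ΔTAM libraries. Pramef12 gave 69.6% to 70.0% of these reads in WT and 56.8% to 59.5% in ΔTAM, while its own level differed between the groups by less than the spread in WT. The share of Pramef8 was 11.3% to 14.4% in WT and 4.83% to 6.62% in ΔTAM. Pramel6, Pramel7 and Pramef25 together remained a small part, with at most 1.16%, 1.01% and 0.318% in a WT library and at least 2.76%, 2.31% and 1.51% in a ΔTAM library.

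**Figure D3:**
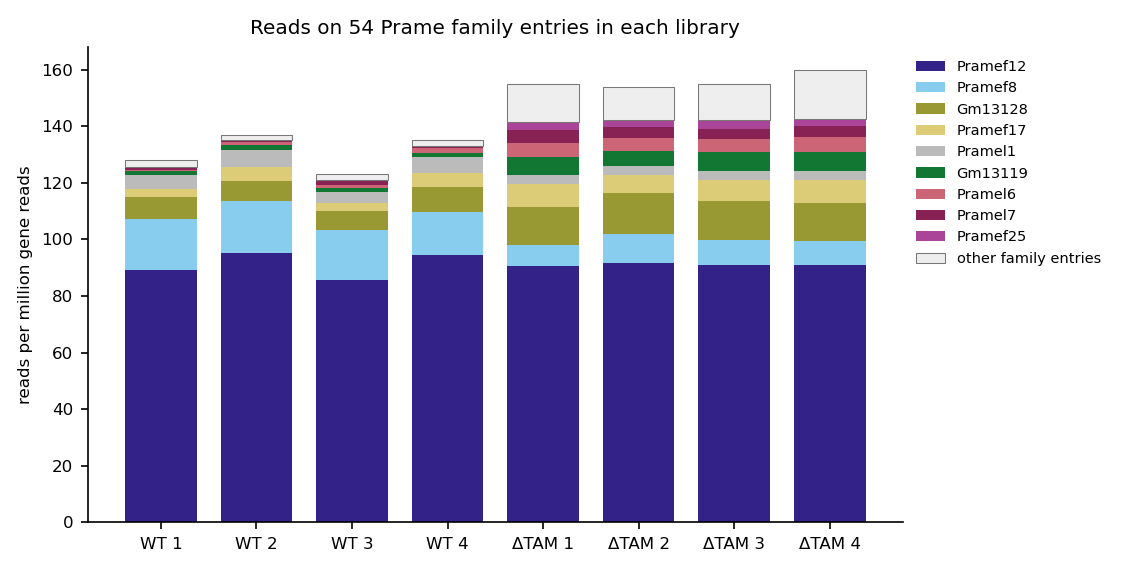
Reads on the 54 Prame family entries per 1000000 reads on genes, stacked by gene, in each of the 4 WT and 4 ΔTAM libraries. Pramef12 is the tall block at the base, Pramef8 above it shrinks in ΔTAM, and the total is 123 to 137 in WT and 154 to 160 in ΔTAM.

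The RNAs of the genes with which PRAMEL7 is known to work had log2 fold changes of 0.0641 to 0.19. Of the CUL2 ligase subunits, Cul2 (log2 fold change 0.0641, limma adjusted p = 0.324), Elob (0.0858, adjusted p = 0.378), Eloc (0.15, adjusted p = 0.106) and Rbx1 (0.0701, adjusted p = 0.385) did not pass the threshold, although voom called Eloc (0.16, adjusted p = 0.0359). Without single libraries they ran from 0.0349 to 0.0925 (Cul2), 0.0296 to 0.13 (Elob), 0.0988 to 0.18 (Eloc) and 0.0432 to 0.12 (Rbx1). The RNAs of both targets were called higher, 2 of the 6 genes beside 13.2% of all genes tested: Chd4 went from 2.79 ± 0.0542 to 3.20 ± 0.0436 RPKM (0.19, SE 0.022, adjusted p = 0.000862) and Uhrf1 from 5.52 ± 0.106 to 5.87 ± 0.13 RPKM (0.0883, SE 0.0239, adjusted p = 0.0331). The call of Uhrf1 was lost in 6 of the 8 fits without a single library, those without WT replicate 1, 2 or 4 or ΔTAM replicate 2, 3 or 4, and that of Chd4 in none. That of Uhrf1 was also lost with quantile normalization (adjusted p = 0.482) and without the trend in eBayes (0.109). The ligase acts on proteins, whose amounts were not measured here.

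Of 8 genes of DNA methylation and its removal, 2 rose and 1 fell, which is 37.5% of the list beside 25.1% of all genes tested. Dnmt3b, a methyltransferase that sets new marks, went from 0.239 ± 0.0103 to 0.393 ± 0.0178 RPKM (log2 fold change 0.70, limma adjusted p = 0.000115), and its cofactor Dnmt3l from 0.11 ± 0.0208 to 0.0645 ± 0.00897 RPKM (-0.67, adjusted p = 0.0133). The other call was Uhrf1, and the maintenance enzyme Dnmt1 had a log2 fold change of -0.0328 (adjusted p = 0.322). Of 13 NuRD subunits, 7 rose and 3 fell (76.9% of the list beside 25.1% of all genes tested), with a median log2 fold change of 0.13. The largest change was that of Mbd2, which binds methylated DNA (0.39, adjusted p = 0.022), followed by the deacetylase Hdac1 (0.32, adjusted p = 0.000574). Mta2 and Chd4 were picked for their RPKM, and Mta2 had a log2 fold change of 0.13 (adjusted p = 0.0376). The call of Mbd2 was lost without WT replicate 1 (adjusted p = 0.0534), WT replicate 2 (0.0561) or ΔTAM replicate 3 (0.0521). That of Mta2 was lost in 6 of the 8 such fits, without WT replicate 2, 3 or 4 or ΔTAM replicate 1, 2 or 3. The call of Mta2 was also lost in 3 of the other alternatives, among them the fit without a filter (limma adjusted p = 0.054).

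**Figure D4:**
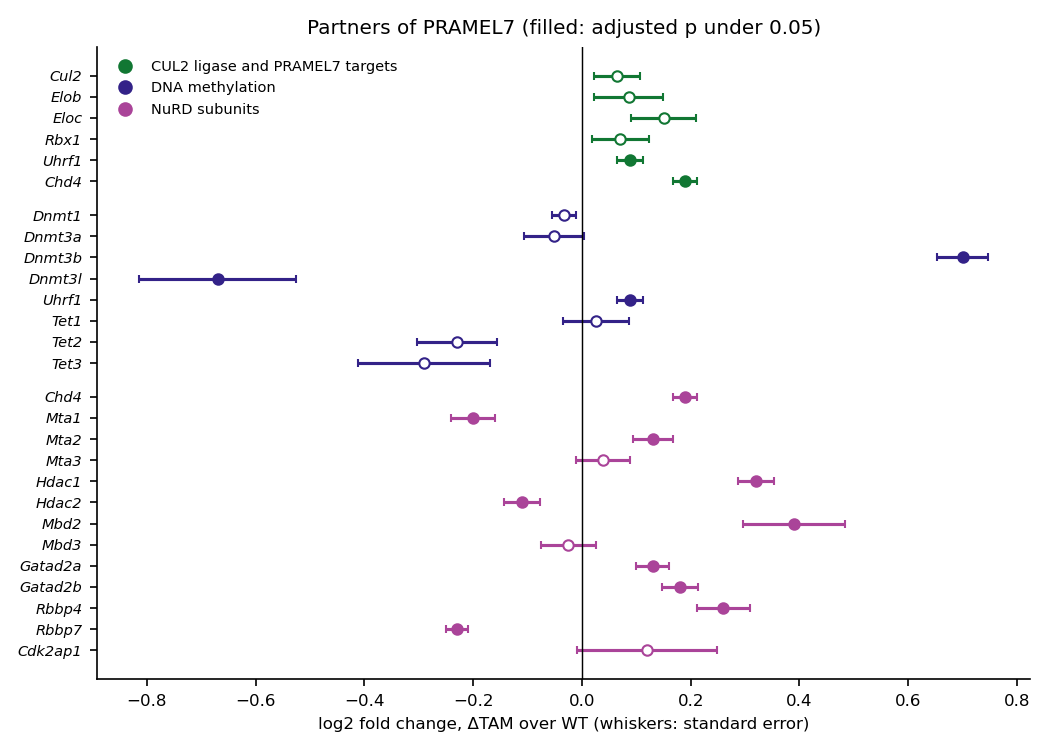
Log2 fold change of ΔTAM over WT with its standard error, from limma on log2(RPKM + 0.01), for the CUL2 ligase subunits and PRAMEL7 targets (green), DNA methylation genes (blue) and NuRD subunits (purple), filled where the adjusted p was under 0.05. All values lie between -0.67 and 0.70, well below the 1.72 of Pramel7.

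Markers of the 2-cell-like state, a rare state of ESC cultures in which genes of the 2-cell embryo are transcribed, moved in the same direction as Pramel6, Pramel7 and Pramef25. Of 12 such markers, Zfp352 and Duxf3 passed the filter only through their level in ΔTAM, and the other 10 were all called higher in ΔTAM, beside 13.2% of all genes tested, with a median log2 fold change of 2.33. Zfp352 had 12 reads in WT and 65 in ΔTAM, and Duxf3 4 and 20. The summed level of these markers was 0.443 to 0.627 RPKM in WT and 2.80 to 2.97 RPKM in ΔTAM. Zscan4e (log2 fold change 2.53, limma adjusted p = 0.000277) and Zscan4d (2.43, adjusted p = 0.000384) had the largest changes, and Zscan4a (2.36, adjusted p = 8.01e-06) and Tcstv3 (2.36, adjusted p = 2.76e-05) were picked for their RPKM. No marker of the list was at 0 in either group. Several Zscan4 and Usp17l genes are close copies, so reads may be split between them. More cells in that state and more RNA per cell cannot be told apart in bulk RNA, and the part of these cells in the levels of the Prame-like genes was not tested.

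**Figure D5:**
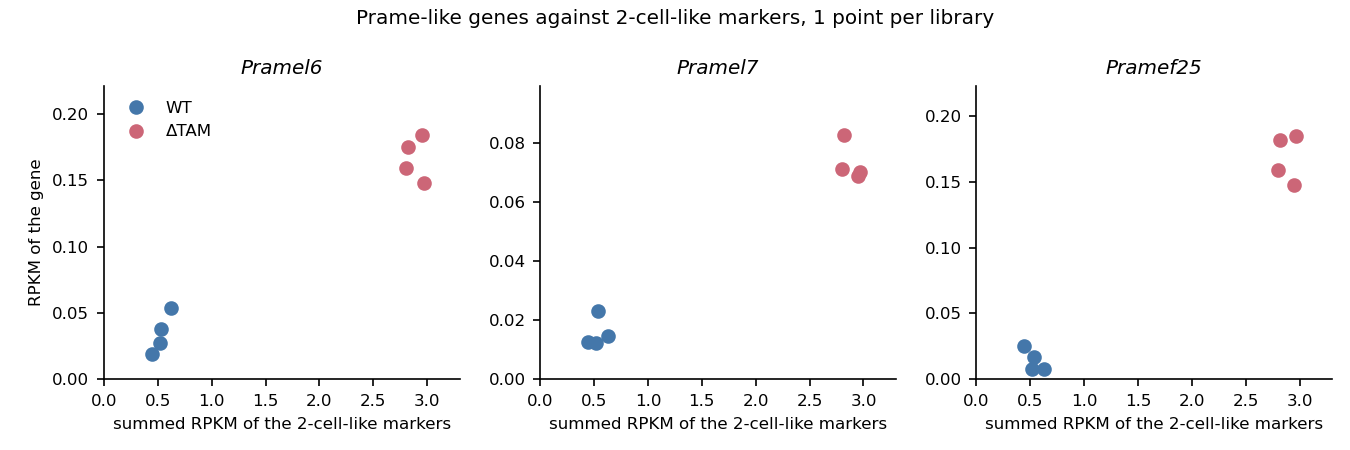
RPKM of Pramel6, Pramel7 and Pramef25 (vertical axes) against the summed RPKM of 12 markers of the 2-cell-like state (horizontal axes), 1 point per library. The 4 WT libraries lie at low values of both, with marker sums of at most 0.627, and the 4 ΔTAM libraries at high values of both, with sums of at least 2.80.

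Other cell types were looked for by their markers. Of 7 germ cell markers 6 were tested, 2 rose (Dazl by 0.71 and Nanos3 by 0.57 on the log2 scale, limma adjusted p = 0.000179 and 0.0128) and Sycp3 fell by 0.77 (adjusted p = 0.012), so that 50.0% of those tested were called beside 25.1% of all genes. Their summed level was 0.945 to 1.09 RPKM in WT and 1.52 to 1.58 RPKM in ΔTAM, most of it Dazl, a gene that ESCs also express. The 6 markers of primitive endoderm, the sister lineage in the inner cell mass, summed to 0.0183 to 0.0441 RPKM in WT and 0.0354 to 0.0596 RPKM in ΔTAM. Of these, 1 was tested and was not called. Foxa2 had 1 read, in ΔTAM replicate 3, and was at 0 in all other libraries of both groups. The 7 trophoblast markers summed to 1.59 to 1.68 and 1.51 to 1.87 RPKM, ranges that overlapped, with 1 called higher and 2 lower of 5 tested, so that 3 of 5 were called beside 25.1% of all genes. The part of any of these cells in the levels of the Prame-like genes was not tested.

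Most genes around the members gave no reads. Within 250 kb of a member lay 97 entries outside the family, of which 69 had no read and 13 entered the fit. They include Gm13040, Gm13102 and Gm15023, which share 100-base stretches with Pramef25, Pramel4 and Pramel3, the first also with BC080695, and had 0, 0 and 1 read over all libraries. Of the 13, 1 was called, or 7.69% beside 25.1% of all genes tested, and only Pdpn and Prdm2 had more than 23 reads in a library. The call was Pdpn, which codes for the membrane glycoprotein podoplanin and fell from 0.145 ± 0.0101 to 0.116 ± 0.00334 RPKM (log2 fold change -0.29, limma adjusted p = 0.00801). Gm13736 (log2 fold change -0.30) and Gm13127 (0.46, adjusted p = 0.281), picked for their RPKM, are short entries with few reads. Around Pramel6 and Pramel7, 25 of the 38 neighbours were olfactory receptor genes, 31 had no read, and no neighbour had more than 10 reads in a library.

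Genes with profiles most like those of Pramel6 and Pramel7 were ranked by Pearson's r of log2(RPKM + 0.01) over the 8 libraries, among 11861 genes outside the family. Among the closest to Pramel6 were Zscan4-ps3 (0.99), Kdm3a (0.99), Dnaja1 (0.988) and B4galt6 (0.988), and those closest to Pramel7 were Pogz (0.998), Ccdc114 (0.997), Brsk1 (0.995), Epas1 (0.994) and 1700030C10Rik (0.993). All 8 points share the same split into WT and ΔTAM, and 750 genes reached an r of 0.9 with Pramel6 and 1013 with Pramel7, so the order at the top says little. Within the family, Pramel6 and Pramel7 had an r of 0.961 with each other, and Pramef8 one of -0.962 and -0.956 with them. Of the genes named here, Zscan4-ps3, a pseudogene of the Zscan4 array, had a fold change as large as theirs (log2 2.36), and the others named had values between 0.21 and 0.71.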

How the data were processed

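Polyadenylated RNA was sequenced from a stranded library, as 100-base single reads per the labels; the study's methods also name other read lengths, and the sequence shared between genes was computed for 100 bases. According to the study's methods and the submitters' processing notes, the authors filtered out ribosomal reads, trimmed the rest, aligned them to mm10 with STAR, counted exon coverage per gene and deposited RPKM for each library singly. The annotation release, whether strand was used and how reads with several matches were counted are not given in the sources used here. Multiplied by the genomic span, 99.5% of the deposited RPKM values above 0 were whole multiples, within 0.02 reads, of a step per library, which gave the reads. Of 51288 entries, 386 that repeated a symbol were set aside.

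Fits used limma 3.58.1 in R 4.3.3 (lmFit, eBayes with a trend) on log2(RPKM + 0.01) for genes averaging 0.01 RPKM or more over all 8 libraries, with Benjamini-Hochberg adjustment over all 16143 genes. The scripts were tested on simulated data. Groups came from the sample labels. Alternatives were other pseudocounts, filters and scalings, eBayes settings, a replicate block, single libraries left out and voom on recovered reads. The members and lists were chosen with earlier results of these data known. Named genes were all members, every gene of the CUL2 ligase list, the 2 largest called changes and the 2 highest levels of each list on DNA methylation, NuRD, 2-cell-like cells, the rest of the family and the neighbours, and the 5 closest profiles to Pramel6 and Pramel7, of which 1 is not reported here. Shared 100-base stretches came from GENCODE vM21 transcripts, and upstream windows and family genes from RefSeq, the latter matched by symbol, synonym, NCBI gene ID or position. Windows were aligned with Biopython. Read counts without molecular identifiers are not independent molecules, so intervals and floors cover counting error only. ChIP-seq, iCLIP and imaging data were not analysed here.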

Additional observations from a re-analysis of the deposited data

Results flagged for a closer look

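In 84 groups of 4 libraries, from 42 named genes, 5 had a library whose gap to the nearest of the others was large for the group's range, and chance alone gives about 1 in 20. Pramel3 in WT replicate 1 (0.00194 RPKM), Pramel5 in WT replicate 4 (0.00197 RPKM) and Pramel5 in ΔTAM replicate 3 (0.0019 RPKM) each rest on 1 read, with the other libraries of the group at 0. Gm12800 was lowest in WT replicate 4, at 0.00695 RPKM against 0.0139 to 0.0147 RPKM in the other WT libraries. Gm13736, a neighbour of Pramel6, was highest in WT replicate 2, at 0.308 RPKM against 0.154 to 0.163 RPKM in the others.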

How the results depend on the processing

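The fold changes of the 5 members in the fit kept their direction in every alternative that gave a value, except that of Pramef12. It lay close to 0 and ran from -0.0263 to 0.0247 when single libraries were left out. Those of the others then ran from 1.86 to 2.24 (Pramel6), 1.66 to 1.85 (Pramel7), 2.80 to 3.11 (Pramef25) and -1.01 to -0.86 (Pramef8). Their size followed the pseudocount: with 0.1 RPKM they were 0.99, 0.58, 1.23 and -0.66 in the same order, and with 0.001 RPKM Pramel7 was at 2.21 and Pramef25 at 3.61. The median of the members, 1.72, became 0.58 with a pseudocount of 0.1, 2.21 with 0.001, 2.19 with voom and 0.0024 both without a filter and with a filter at 0.1 RPKM, where a different set of members enters it. The number of genes called was 4050, 3093 to 3610 without single libraries, 3690 without a filter, 3243 with a filter at 0.1 RPKM and 5699 with voom. With the filter at 0.1 RPKM, which tests fewer genes, 4 other family entries in place of 8 and 7 of the 2-cell-like markers in place of 11 were called (8 and 11 include Gm13083, Gm13101 and Zfp352, which entered only through ΔTAM, and are 6 and 10 without them); without single libraries these were 5 to 10 and 11 to 12. Calls in the CUL2 ligase and target list dropped from 2 to 1 with quantile normalization, without the eBayes trend and in 6 of 8 fits without a library (1 to 2), by the loss of Uhrf1 (adjusted p = 0.482 with quantile normalization), while voom also called Eloc. Called neighbours were 1 to 2 without single libraries. DNA methylation genes called went from 3 to 5 with voom. Gm13736 ran from -0.69 to 0.0047 without single libraries and reversed without ΔTAM replicate 3. Gm13127 ran from 0.24 to 0.71 in such fits and was called in 1 of them. The replicate numbers do not pair the libraries (correlations of same-numbered deviations 0.0025 to 0.0459); a replicate block gave 2978 calls, 1 in the CUL2 list and 2 neighbours, and lost the calls of Uhrf1, Mta2 and Pramef17. The cause of these shifts was not tested, and the few WT reads of Pramel6, Pramel7 and Pramef25 limit the precision of their fold changes.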
